A study of Mus musculus with 48 samples.

Results

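The baseline effect of the *APOE4* allele was examined in the cerebral cortex of female mice that had breathed filtered air, by comparing 4 *APOE4* females with 4 *APOE3* females. The genes compared were those with at least 1 read in all 8 libraries, which were 16419 of the 18939 genes listed under a single symbol. Both groups were *APOE*-TR mice, in which targeted replacement puts a human *APOE* allele in the place of mouse *Apoe* on a B6 background, so the controls carry a human allele as well. All 8 were labelled female and 6 months old, and were control animals of an air pollution experiment with chamber sessions of 5 h a day on 3 days a week for 15 weeks. The *APOE4* (E4) animals carried the numbers F7, F21, F26 and F38, and the *APOE3* (E3) animals the numbers F52, F61, F63 and F6. The column headed F6 matched no animal number in the labels, so it was used only as an E3 control female. The labels do not say that the animals were littermates, so the allele and anything else that differs between the mouse lines cannot be told apart. Males of both genotypes in filtered air and females exposed to nPM, a nano-sized fraction of urban particulate matter, served as comparisons and shared no library with the 8.

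ApoE, the protein of the *APOE* gene, carries cholesterol and other lipids between brain cells, is made mainly by astrocytes. The *APOE4* allele is the strongest common genetic risk factor for late-onset Alzheimer's disease, and *APOE3* is the most frequent human allele. Zinc finger genes, which form the largest set of differences here, encode DNA-binding proteins, many of which silence retroelements, and they often sit in tandem clusters of near-identical copies.

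The library labels were checked first. *Xist*, the RNA of the inactive X chromosome, was at 607 to 728 CPM (deposited read counts scaled to library size) in E4 and at 90.3 to 909.9 CPM in E3, against at most 0.277 CPM in the 16 males, and *Ddx3y* of the Y chromosome was at its no-read value in all 8 females. The lowest *Xist* values belonged to E3 F61, with 90.3 CPM, and E3 F6, with 211 CPM. These libraries stood apart from the other 6. The first principal component held 79.0% of the variance, with scores of 88.7 for F61 and 59.3 for F6 and between -41.6 and -4.41 for the rest. The slope of a library's gene levels on log2 transcript length, relative to the mean of the 8, was -0.363 for F61 and -0.219 for F6 against 0.0201 to 0.166 for the rest. Depth lay between 17.8 and 21.0 M reads in E3 and between 20.9 and 22.3 M reads in E4. Results are therefore also given without F61 and F6, and the part that length or depth had in any difference was not tested beyond the values printed beside it.

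Transcripts of 38 genes differed between the alleles at 5% FDR, 13 higher (0.0792%) and 25 lower (0.152%) in E4, together 0.231% of the genes tested. In all 38 the E4 mice and the E3 mice did not overlap, as in 29.1% of all genes tested. In bulk cortex, fewer cells of a type and less RNA per cell cannot be told apart. All 38 kept their direction and stayed below 5% FDR without F61 and F6, but only 16 stayed below it with the length slope of the libraries as a covariate, and 15 in all 8 fits that left out 1 library. Chromosome 2 held 13 of them, all in a single run of zinc finger genes, and the other 25 were on 14 other chromosomes. The plot of called genes by mouse shows 36 of the 38.

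**Figure D1:**
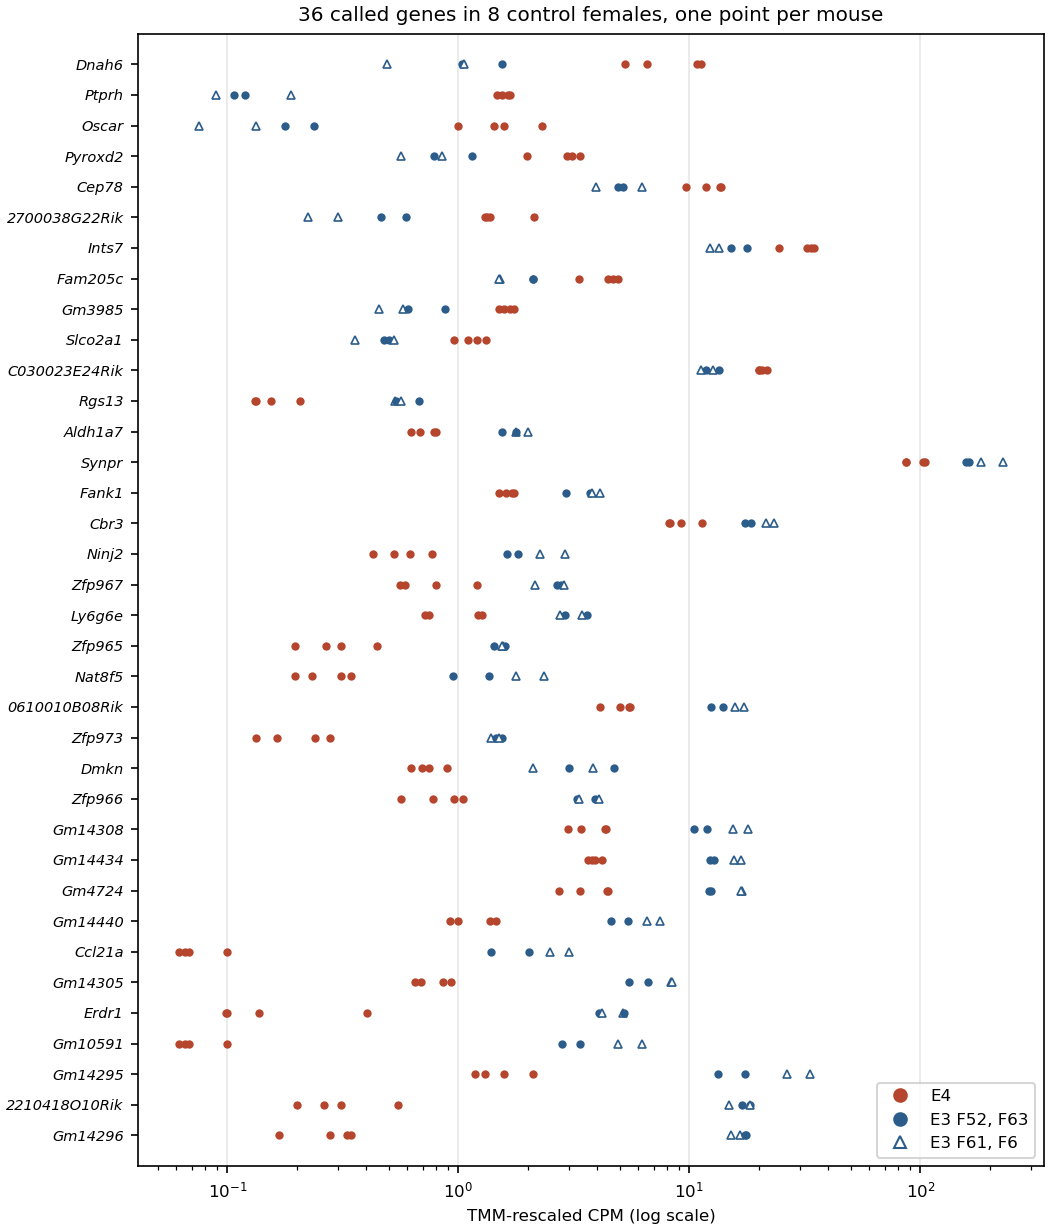
Level of 36 of the 38 called genes in each of the 8 control females, as TMM-rescaled CPM on a log axis, with E4 mice in red and E3 mice in blue and the libraries E3 F61 and F6 as open triangles. In every row the 4 red points lie apart from the 4 blue ones, for example 0.167 to 0.343 against 15.1 to 17.6 in *Gm14296*.

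The stretch of chromosome 2 from the first to the last called gene, 175275125 to 176927814 (GRCm38), held 16 tested genes. Of these, 13 were lower in E4 at 5% FDR, against 0.152% lower over all genes. The calls themselves set the edges, and the listings share sequence, so 13 of 16 is a description and not a test. The other 3, *Gm14288*, *Gm6710* and *Gm14405*, were also lower but did not pass. *Gm14296* and *2210418O10Rik*, on opposite strands, were near the floor in E4 and well expressed in E3. *Gm14296* had 0.343, 0.167, 0.328 and 0.279 rescaled CPM in E4 F7, F21, F26 and F38, and 17.6, 16.5, 17.5 and 15.1 in E3 F52, F61, F63 and F6. Its E4 level was lower by 4.47 ± 0.12 on the log2 scale (± SE, n = 4 a group), with an adjusted p of 1.3e-06 in limma. *2210418O10Rik* had 0.548, 0.1998, 0.262 and 0.310 in E4 and 18.2, 18.3, 16.9 and 14.9 in E3. Its log2 difference was -4.42 ± 0.15. Every E4 mouse lay far below every E3 mouse in both genes, and F61 and F6 were close to F52 and F63.

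The start regions of these genes are shown because the called and the uncalled members of the cluster are close copies. RefSeq (GRCm38.p6) gave the 250 bases before and 50 after the start for 11 of the 13 called genes. The capitals mark AGCCAATCAGA, an 11-base word around a CCAAT box that was chosen from the called promoters, so its presence in them is not a finding. The first sequence is that of the gene with almost no E4 transcript (chr2:176226315-176226614, plus strand), the next that of *Gm14434* (chr2:176486700-176486999, minus strand), and the last that of *Zfp970* (chr2:177464492-177464791, plus strand), a gene of the same family that was not called.
2210418O10Rik: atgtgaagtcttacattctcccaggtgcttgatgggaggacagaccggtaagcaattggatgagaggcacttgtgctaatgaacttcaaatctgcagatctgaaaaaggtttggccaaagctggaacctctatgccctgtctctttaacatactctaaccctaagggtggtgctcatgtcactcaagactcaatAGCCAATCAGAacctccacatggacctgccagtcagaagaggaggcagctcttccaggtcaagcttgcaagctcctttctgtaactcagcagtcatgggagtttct
Gm14434: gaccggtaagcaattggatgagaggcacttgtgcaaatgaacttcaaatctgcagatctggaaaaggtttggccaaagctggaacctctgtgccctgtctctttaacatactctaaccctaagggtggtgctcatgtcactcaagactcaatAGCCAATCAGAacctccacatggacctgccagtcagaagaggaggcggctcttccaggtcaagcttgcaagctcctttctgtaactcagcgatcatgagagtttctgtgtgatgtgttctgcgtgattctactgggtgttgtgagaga
Zfp970: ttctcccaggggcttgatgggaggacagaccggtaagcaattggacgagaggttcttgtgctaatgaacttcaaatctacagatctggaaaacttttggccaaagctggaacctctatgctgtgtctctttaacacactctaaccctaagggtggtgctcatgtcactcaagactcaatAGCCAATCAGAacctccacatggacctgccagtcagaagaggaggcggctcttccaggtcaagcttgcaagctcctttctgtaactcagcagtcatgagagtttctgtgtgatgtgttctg
The word, searched on both strands, was in all 11 called promoters, in 10 of the 12 promoters of uncalled genes of the cluster and in 0.714% of the 27025 promoters in the RefSeq table. Pairs of called promoters were 93.6 to 100% identical, with a median of 95.0%, and pairs of a called and an uncalled promoter had the same median, from 72.3 to 100% over the aligned overlap. *Gm14434*, *Gm14308* and *Gm4724* had the same 300 bases, as did *Zfp966* and *Zfp967*. The called *Gm14440* and the uncalled *Gm14288* matched at all 299 aligned bases.

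Many transcripts of the cluster also share sequence, which bears on how reads could be assigned. Of the 12 called genes with an annotated transcript, the share of 50-base words found in no other gene had a median of 0% and a highest value of 67.1%, in *Gm14296*. All the 50-base words of *2210418O10Rik* also occur in *Gm14296*, and all those of *Gm14308* and *Gm4724* occur in *Gm14434*. Over the 14 uncalled genes of the cluster the median was 18.3%, with a highest value of 87.8%, in *Gm14391*. Over the other 23 called genes with a transcript the median was 100%. The study kept uniquely mapped reads, so the level of 1 zinc finger copy here is uncertain and may hold reads of another, and the differences below are those of the listings.

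The remaining listings of the cluster had smaller log2 differences, on a scale that understates falls in low genes. *Gm14295* was at 1.30, 2.10, 1.18 and 1.58 rescaled CPM in E4 and at 13.4, 33.2, 17.4 and 26.4 in E3, a log2 difference of -3.44 ± 0.28. It was highest in F61 and F6, and without them its difference was -2.96. *Gm14305* was at 0.651 to 0.932 in E4 and 5.47 to 8.43 in E3, with -2.58 ± 0.16. *Gm14440*, *Gm4724*, *Gm14434*, *Gm14308* and *0610010B08Rik* had log2 differences from -1.94 to -1.47, and each kept 1.19 to 5.02 CPM on average in E4. *Zfp966*, *Zfp973*, *Zfp965* and *Zfp967*, whose products are named as zinc finger proteins, had log2 differences from -1.64 to -1.29 at levels of 1.47 to 3.63 CPM in E3. The log2 difference was thus largest in *Gm14296* and *2210418O10Rik* and smaller in the other 11 listings. How much of the E4 level of a listing is its own transcript was not separated from reads of its copies. Downstream of the block, *Zfp970* was at 14.1 ± 0.473 CPM in E4 and 17.9 ± 1.32 CPM in E3 (SD, n = 4), with -0.33 and an adjusted p of 0.0766, and *Zfp971* had -0.36 with 0.0906. Larger uncalled differences lay beside them, with -0.97 in *Zfp931*, -0.83 in *Gm14326* and -0.63 in *Gm14325*, each at an adjusted p of 0.0766. In each, every E4 mouse lay below every E3 mouse, where 29.1% of all genes tested did not overlap in either direction. Without F61 and F6 these differences were -0.60, -0.66 and -0.43, and only *Gm14325* was called. They were not called in males, at -0.11, -0.41 and -0.20, or in nPM females, at -0.12, -0.45 and -0.24. The uncalled genes of this region were named after their values were seen. All 13 called genes were also called, and lower in E4, in control males and in nPM-exposed females. Leaving out 1 library at a time kept 11 of the 13 in all 8 fits, the exceptions being *Gm14308*, called in 6, and *Zfp967*, called in 3.

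A second short stretch held 3 called genes, on chromosome 4 from 42612123 to 42874204. *Ccl21a*, a chemokine that guides lymphocytes and dendritic cells through the receptor CCR7, had 0.0685, 0.0999, 0.0656 and 0.0620 rescaled CPM in E4 and 1.39, 3.03, 2.03 and 2.48 in E3. Its E4 libraries held 1 or 2 reads each, 5 in all, against 222 reads in E3. The ratio of reads scaled to depth was 49.2 in favour of E3, with an exact 95% interval of 20.8 to 153 for counting error alone. *Gm10591*, all of whose 50-base words occur in the paralog *Ccl21b*, had 5 reads in E4 and 432 in E3, a ratio of 95.8 with an interval of 40.7 to 296. Only 28.4% of the words of *Ccl21a* were its own, so the values of these listings are uncertain. *Fam205c*, nearby, went the other way, with 4.90, 3.33, 4.46 and 4.68 in E4 and 2.10, 1.51, 2.10 and 1.51 in E3. Its log2 difference of 1.07 ± 0.16 was called here at an adjusted p of 0.0464, with 0.14 in males and 0.49 in nPM females, called in neither. *Gm10591* was called in both, with -2.51 in males and -2.97 in nPM females, while *Ccl21a* had a library without reads in each and could not be fitted there.

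*Erdr1*, erythroid differentiation regulator 1, listed at the end of chromosome Y where the sequence is shared with X, was nearly absent from E4. It had 0.137, 0.0999, 0.0984 and 0.403 rescaled CPM in E4 and 4.05, 5.16, 5.20 and 4.18 in E3. The E4 libraries held 19 reads together and the E3 libraries 471, a ratio of 27.5 with an interval of 17.4 to 46.0. Within E4 the mouse F38 was highest, at 12 reads. The gene did not reach 1 read in every library of the males or of the nPM females and was not fitted in those sets.

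Among the 13 genes higher in E4, 5 were called in all 3 sets or in both sets in which they could be fitted. *Ptprh*, a receptor-type tyrosine phosphatase on chromosome 7 (4548614 to 4604042), had 1.64, 1.47, 1.54 and 1.67 rescaled CPM in E4 and 0.119, 0.0890, 0.107 and 0.188 in E3. The E3 libraries held 9 reads in all against 189, a ratio of 18.9 with an interval of 9.77 to 42.1, and the log2 difference was 1.74 ± 0.09. In control males the log2 difference was also 1.74. *Oscar*, an immunoglobulin-like receptor for collagen on the same chromosome (3609813 to 3616158), had 0.993, 2.30, 1.57 and 1.43 in E4 and 0.238, 0.134, 0.178 and 0.0753 in E3, with 1.63 ± 0.19. Between them *Eps8l1*, an actin regulator named after its values were seen, had 2.27, 0.799, 2.73 and 1.94 against 0.334, 0.238, 0.285 and 0.151. At 1.62 ± 0.26 and an adjusted p of 0.0695 it missed the threshold. *Dnah6*, a heavy chain of the dynein motor of cilia, had 6.54, 5.26, 11.2 and 10.8 in E4 and 1.55, 0.490, 1.03 and 1.05 in E3. Its log2 difference of 2.53 ± 0.29 was the largest among the called genes higher in E4, and the values in males and nPM females were 2.41 and 2.59. *Cep78*, a centrosomal protein, was at 12.2 ± 1.89 and 5.07 ± 0.94 CPM (SD, n = 4 each), and *Ints7*, a subunit of the Integrator complex that processes nuclear RNAs, at 31.2 ± 4.56 and 14.6 ± 2.37. Both were called in the males and the nPM females too. Of the 8 fits that left out 1 library, *Ptprh* was called in 8, *Dnah6* and *Oscar* in 5, *Ints7* in 3 and *Cep78* in 2.

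*Pyroxd2*, an oxidoreductase, was higher here and in males but was not called in nPM females, and it was called in 2 of those 8 fits. It had 1.99, 3.10, 2.95 and 3.38 in E4 and 1.15, 0.846, 0.784 and 0.565 in E3. *Dmkn*, which encodes the secreted epithelial protein dermokine, and *Ninj2*, an adhesion protein of injured nerve, were lower here and in males but were not called in nPM females, and were called in 3 and 2 of those fits. *Dmkn* had 0.891, 0.699, 0.623 and 0.744 in E4 and 3.01, 3.83, 4.70 and 2.11 in E3. *Nat8f5*, of an acetyltransferase family, was lower in all 3 sets but called in only 2 of the 8 fits that left out 1 library, with log2 differences of -1.41 in control females, -1.08 in control males and -0.95 in nPM females. Counting over the whole set, 36 of the 38 genes could be fitted in males and 24 of those were called there, all in the same direction, against 0.439% of all genes called in males. Of the 35 that could be fitted in nPM females, 19 were called, all in the same direction, against 0.145% of all genes. These 24 were 33.8% of the male calls that could be tested here, and the 19 were 82.6% of the nPM female calls.

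**Figure D2:**
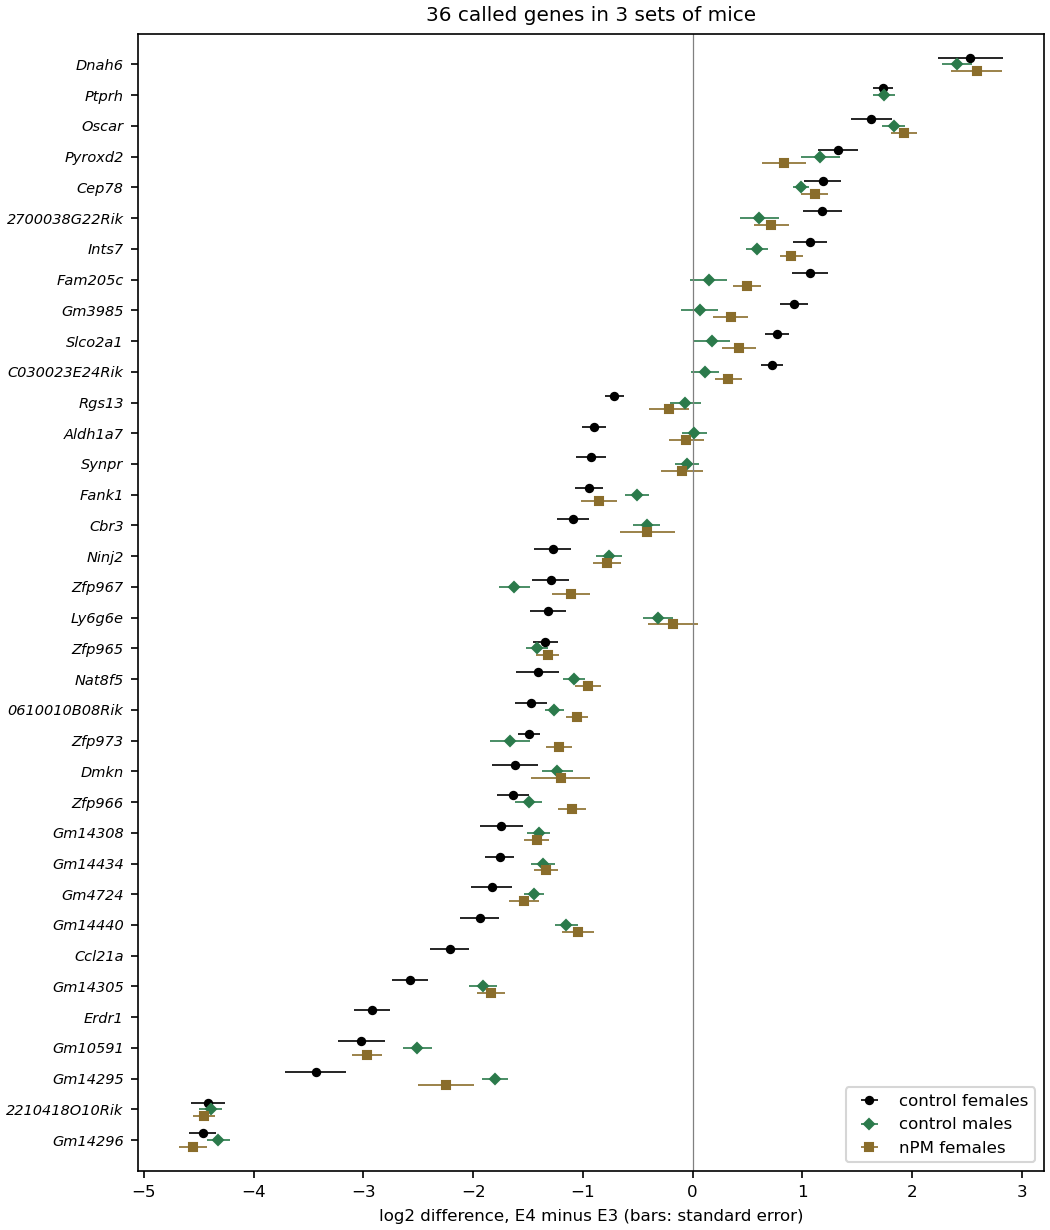
Log2 difference (E4 minus E3) of 36 of the 38 genes called in control females, with standard errors, in control females (circles), control males (diamonds) and nPM-exposed females (squares), each from 4 mice a group. *Gm14296* lies at -4.47, -4.32 and -4.55, while *Aldh1a7* lies at -0.90, 0.02 and -0.06.

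The remaining 14 called genes were called in neither of the other sets, or could not be fitted there. Of these, 12 were fitted in both. Among them *C030023E24Rik*, *Gm3985*, *Slco2a1*, *2700038G22Rik* and *Fam205c* were higher, and *Aldh1a7*, *Rgs13*, *Ly6g6e*, *Cbr3*, *Fank1* and *Synpr* were lower in E4 control females. Synaptoporin (*Synpr*), a synaptic vesicle membrane protein, was the most abundant gene called. It had 103, 105, 86.4 and 86.6 rescaled CPM in E4 and 162, 227, 158 and 184 in E3, with -0.93 ± 0.14 here, -0.05 in males and -0.10 in nPM females. *Aldh1a7*, an aldehyde dehydrogenase, had 0.788, 0.799, 0.623 and 0.682 in E4 and 1.55, 1.78, 1.78 and 1.995 in E3. The carbonyl reductase *Cbr3* was at 9.23 ± 1.48 and 20.2 ± 2.64 CPM (SD, n = 4 each), and *Slco2a1*, a prostaglandin transporter, at 1.14 ± 0.149 and 0.465 ± 0.0752. Each of these 12 was called in 1 to 3 of the 8 fits that left out 1 library. *Dmkn*, *Ninj2*, *Nat8f5*, *Cbr3*, *Fank1*, *Rgs13*, *Ly6g6e* and *Synpr* are the 8 called genes outside the naming rule and were named after their values were seen.

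Whether the allele difference itself differed between females and males was tested in 1 model of the 16 control mice. No gene reached 5% FDR (limma), although 5838 of 16222 genes had an unadjusted p under 0.05 and 886, or 5.46%, had p under 0.005. By edgeR's quasi-likelihood test the count was also 0, and by DESeq2 it was 2468. *Aldh1a7* had the smallest p, with a difference of effects (female minus male) of -0.92 and an adjusted p of 0.0865. The next in the same direction were *Diaph3*, a formin that builds actin filaments, with -0.82, and *Nudt11*, a diphosphate hydrolase, with -0.59. In the other direction stood *Fstl4* with 1.18, the keratin *Krt20* with 1.46 and *Ccdc14* with 0.62. The female differences of *Fstl4* were 1.16 with all 8 libraries and 0.87 without F61 and F6, against -0.03 in males. *Gm14295* was lower by 3.44 in females and by 1.80 in males on the log2 scale, and the test of that difference gave an adjusted p of 0.0865. Without F61 and F6 the test called 123 genes, without E3 F52 it called 6342 and without E3 F63 it called 4449.

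Beyond the 38, a much larger number of genes lay just above the threshold. There were 3591 genes with an adjusted p between 0.05 and 0.08, of which 1667 were higher and 1924 lower in E4. At the unadjusted threshold of p under 0.005 there were 974 genes, or 5.93%, with 421 (2.56%) higher and 553 (3.37%) lower in E4. Leaving out E3 F52 raised the 38 calls to 6401. The count was 22 without E3 F61, 25 without E3 F63 and 17 without E3 F6, and 30, 22, 17 and 15 without E4 F7, F21, F26 and F38. Without both F61 and F6 there were 310 calls, or 1.85% of genes, 182 (1.09%) higher and 128 (0.766%) lower.

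Over all tested genes with a known transcript length, the allele difference ran with length. Genes whose longest transcript was under 1 kb had a median log2 difference of -0.44 and only 13.7% of the 819 were higher in E4. The median rose through -0.21, -0.02 and 0.21 in the next length classes to 0.51 at 8 kb and over, where 79.4% of 895 genes were higher. Without F61 and F6 the extremes were -0.20 and 0.16, in nPM females -0.18 and 0.19, and in control males -0.01 and -0.03. Among all 32 *APOE*-TR libraries F61 and F6 had the lowest length slopes, -0.545 and -0.396, followed by E3 F55 of the nPM group at -0.218. The other E3 control females, at -0.113 for F52 and -0.150 for F63, also lay below all 4 E4 control females, which spanned -0.101 to 0.00206.

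**Figure D3:**
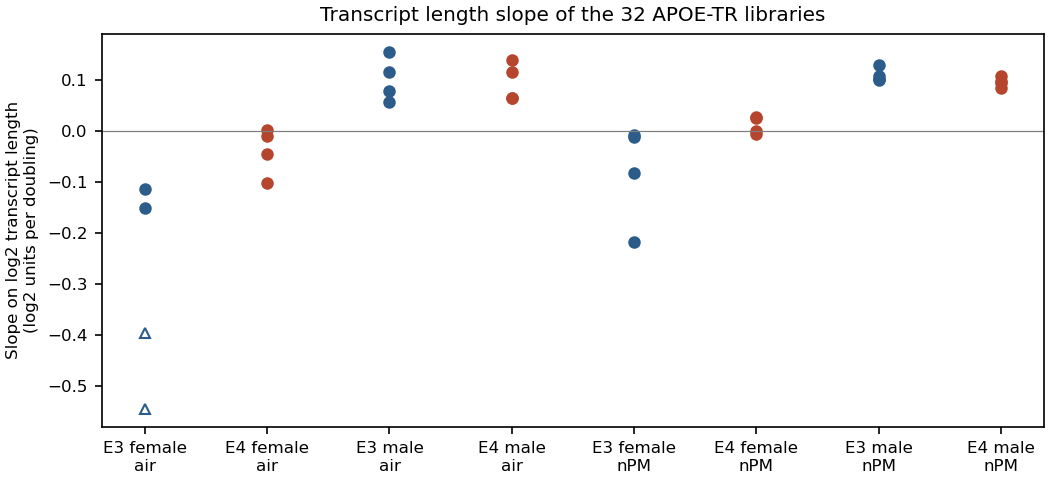
Slope of each library's gene levels on log2 transcript length, relative to the mean of the 32 *APOE*-TR libraries, 4 libraries per group with E3 in blue and E4 in red. The open triangles are E3 F61 at -0.545 and E3 F6 at -0.396, below every other library.

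**Figure D4:**
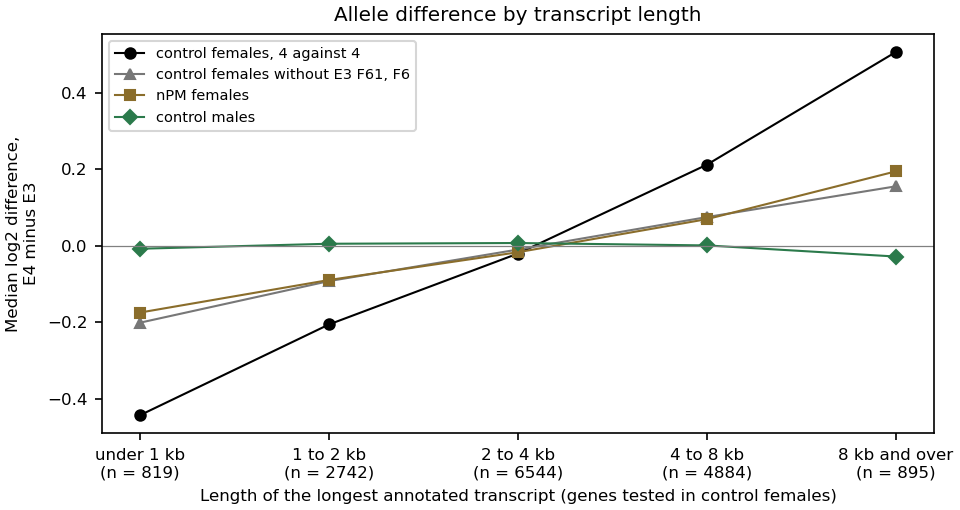
Median log2 difference (E4 minus E3) of the genes tested in control females, in 5 classes of transcript length, for control females with all 8 libraries, without E3 F61 and F6, for nPM females and for control males. The line for all 8 control females climbs from -0.44 to 0.51, while that for males stays between -0.03 and 0.01.

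The gene lists below should be read with this gradient in mind, because none was compared with genes of its own length. None of their members passed 5% FDR with all 8 libraries, so their values are given as descriptions beside the median of all genes, which was -0.003. Synaptic vesicle and release genes, with a median transcript of 4655.5 bases, had a median of 0.50, with 18 of 20 above 0. *Bsn*, the large scaffold protein bassoon of the active zone, had 329, 309, 365 and 392 CPM in E4 and 143, 55.97, 178 and 58.7 in E3. The 2 low values are those of F61 and F6, and the other E3 mice also lay below every E4 mouse. *Bsn* differed by 1.85 ± 0.37 (adjusted p = 0.0766), and by 1.13 without F61 and F6 (adjusted p = 0.0125), against -0.00 in males. *Vamp1*, a vesicle SNARE, did not follow F61 and F6, with 163, 181, 200 and 173 in E4 and 119, 131, 120 and 121 in E3. Its log2 difference was 0.54 with an adjusted p of 0.0766, 0.59 without F61 and F6 with 0.0350, and -0.02 in males. *Unc13a*, which primes vesicles, was the other member called without them, at 0.67.

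Ion channels and NMDA receptor subunits also lay high. The voltage-gated calcium and sodium channels had 0.98, with 18 of 19 above 0, and the NMDA receptor subunits had 0.91, with all 7 above 0. Without F61 and F6 these medians were 0.35 and 0.19, and in males -0.02 and -0.03. The median transcript lengths were 8306.5 bases for the channels and 5431 for the NMDA subunits. *Grin1*, the obligatory NMDA subunit, had 190, 210, 227 and 252 CPM in E4 and 144, 36.6, 140 and 60.3 in E3, with 1.41 and an adjusted p of 0.0766. Without F61 and F6 it was called, at 0.62 with 0.0397. *Cacna1a*, the P/Q-type calcium channel, had 49.5, 57.9, 70.5 and 72.0 in E4 and 34.4, 19.2, 36.6 and 18.5 in E3, and was also called without those libraries, at 0.80, while in males it was at 0.03. The AMPA receptor list had a median of 0.35, and 0.07 without F61 and F6, when *Cnih2*, an auxiliary subunit named after its values were seen, was called lower at -0.50. Chromatin remodelling and histone methylation genes, with a median length of 8509 bases, had a median of 0.89 with all 21 above 0. Without F61 and F6 the median difference of that list was 0.38, and in males 0.01. *Kmt2d*, a histone H3 methyltransferase, was at 69.5 ± 14.3 CPM in E4 and 19.4 ± 14.8 in E3 (SD, n = 4 each). Its E3 values were 33.5 and 31.0 in F52 and F63 and 5.88 and 7.42 in F61 and F6. The log2 difference of *Kmt2d* was 2.18, 1.08 without F61 and F6 and 0.01 in males. It was among 5 members called higher without F61 and F6, against 1.09% of all genes in that fit.

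Several lists lay at the other end, most of them of short transcripts. Complex I of the respiratory chain, with a median transcript of 1046 bases, had all 37 subunits below 0 and a median of -0.79. *Ndufb6* had 28.6, 27.7, 24.9 and 27.5 CPM in E4 and 42.1, 110, 48.7 and 77.8 in E3. Its log2 difference was -1.24 with an adjusted p of 0.0766, -0.72 without F61 and F6 with 0.0221, and -0.02 in males. Without F61 and F6 the complex I median was -0.31 and 7 subunits were called lower, against 0.766% of all genes in that fit. Ribosomal proteins of the large subunit had -0.82, with 45 of 46 below 0, and -0.39 without F61 and F6, when none was called. *Rplp1* had 238, 254, 176 and 196 in E4 and 322, 736, 365 and 520 in E3. The proteasome core had a median of -0.65 with all 14 below 0. The Rap and Rab small G proteins had -0.39 with 15 of 16 below 0. Their median length of 3220 bases was near that of all genes (3287.5). Without F61 and F6 the proteasome median was -0.28 and the Rap and Rab median -0.17, and no member of either list was called. In males the medians of these 4 lists lay between 0.01 and 0.05.

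**Figure D5:**
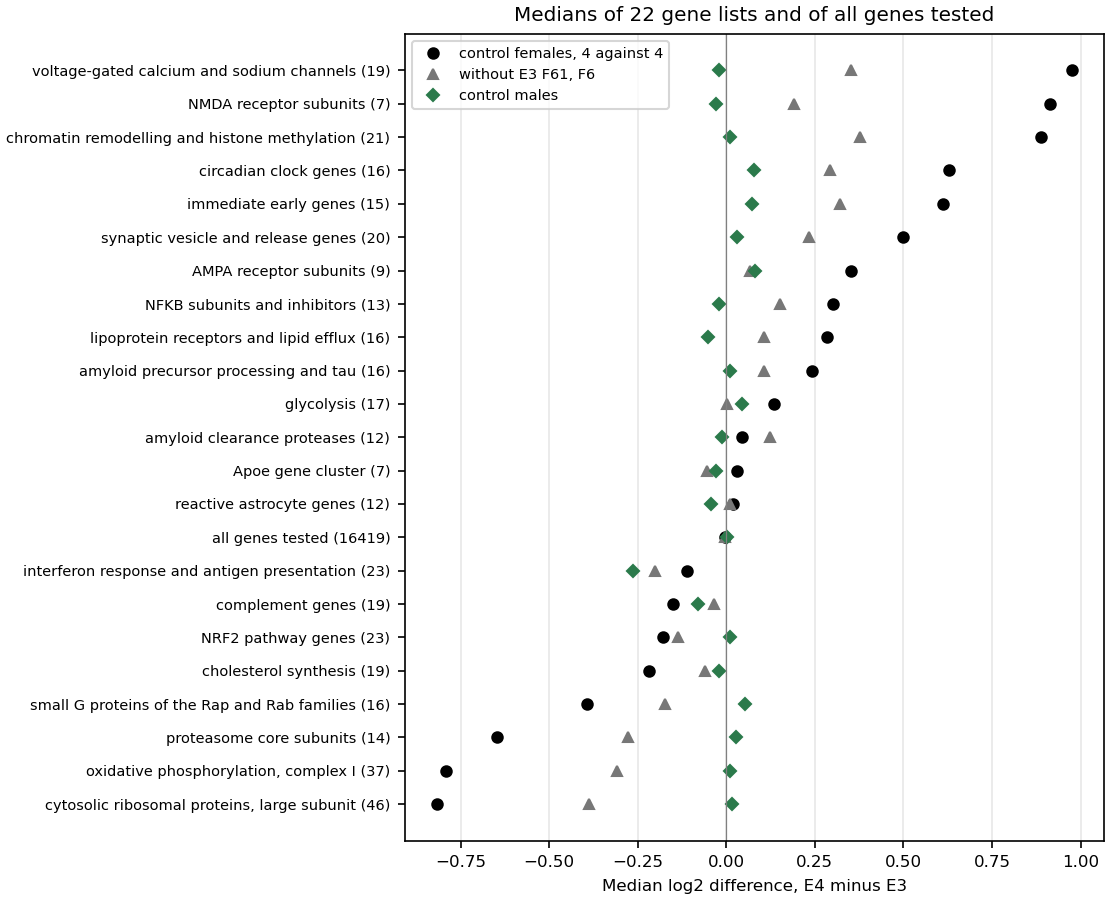
Median log2 difference (E4 minus E3) of 22 gene lists and of all genes tested, with the number of genes tested in brackets, for control females with all 8 libraries (circles), without E3 F61 and F6 (triangles) and for control males (diamonds). The circles run from -0.82 for ribosomal proteins to 0.98 for ion channels, the triangles lie nearer 0 at both ends, and most male medians lie near 0.

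Genes close to ApoE biology showed less. Mouse *Apoe* itself, listed on chromosome 7, was at 20.0, 25.1, 18.2 and 20.6 rescaled CPM in E4 and 19.8, 28.2, 22.9 and 29.2 in E3, and the groups overlapped. Its log2 difference was -0.24 ± 0.15 with an adjusted p of 0.255, and what remains of the mouse gene or maps to it from the human allele was not separated. The 7 genes tested around *Apoe* had a median of 0.03. Among lipoprotein receptors and lipid efflux genes, 12 of 16 were above 0, with a median of 0.29 that fell to 0.11 without F61 and F6. *Lrp1*, an endocytic receptor for ApoE, had 179, 187, 217 and 223 CPM in E4 and 114, 62.8, 126 and 57.9 in E3. It was at 1.23 (adjusted p = 0.0766), and at 0.75 without F61 and F6, when it was called at 0.0322, while in males it was at -0.09. *Abcg1*, a sterol exporter, was called in the same fit, with 0.37. Cholesterol synthesis genes had a median of -0.22, with 14 of 19 below 0. Amyloid precursor and tau genes had a median of 0.24 and the amyloid-degrading proteases and inhibitors 0.04, where *Cst3*, the protease inhibitor cystatin C, had 775, 1002, 547 and 639 in E4 and 1071, 1850, 1173 and 1477 in E3.

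The largest difference of any listed gene was in the reactive astrocyte list. *Serpina3n*, a serine protease inhibitor of reactive astrocytes, had 48.8, 19.7, 90.2 and 90.9 CPM in E4 and 8.69, 7.57, 8.09 and 6.17 in E3. Every E4 mouse was above every E3 mouse, and the spread lay within E4. The log2 difference was 2.73 ± 0.44 with an adjusted p of 0.0695, it was 2.60 with 0.0493 without F61 and F6, and it was called in control males at 2.47 but not in nPM females, at 2.02 with 0.509. Of the 12 reactive astrocyte genes tested, 7 were above 0, with a median of 0.02. In the complement list 12 of 19 were below 0. The central component *C3* had 0.171, 0.266, 0.394 and 0.124 in E4 and 6.31, 0.890, 0.677 and 1.17 in E3, highest in F52. Its log2 difference of -1.50 had an adjusted p of 0.0782 here, and it was called in males at -1.43 and in nPM females at -1.82. Interferon and antigen presentation genes had a median of -0.11 and no member at p under 0.005. NRF2 pathway genes had a median of -0.18 and NFKB subunits and inhibitors 0.30. Without F61 and F6 these medians were -0.14 and 0.15, and in males 0.01 and -0.02. *Rela*, a DNA-binding subunit of NFKB, was at 13.4 ± 1.37 and 7.27 ± 2.37 CPM (SD, n = 4 each). Its E3 values were 9.44 and 9.19 in F52 and F63 and 5.03 and 5.42 in F61 and F6. The log2 difference of *Rela* was 0.89 (limma, adjusted p = 0.0766), 0.50 without F61 and F6 (0.0651) and -0.05 in males. Immediate early genes, which follow neuronal activity, had a median of 0.61, and clock genes had 0.63. *Arc* was at 130 to 346 in E4 and 22.8 to 197 in E3, with the groups overlapping. Without F61 and F6 the medians of these lists were 0.32 and 0.29, and in males 0.07 and 0.08. Their median transcript lengths were 2965 and 4319.5 bases. Glycolysis genes had a median of 0.14 with all 8 libraries.

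Cell and tissue markers were summed in each library, which describes the samples and does not measure their cell composition. Gene by gene, astrocyte markers had a median log2 difference of -0.38 with 7 of 8 below 0. Microglia markers had -0.39 with 9 of 11 below 0, and blood cell markers -0.48 with all 7 below 0. Endothelial markers had 0.16 with 7 of 8 above 0. Without F61 and F6 these medians were -0.19, -0.12, 0.31 and -0.04. Summed levels of 7 neuron markers were 5622 to 6142 CPM in E4 and 5448 to 6999 in E3, so the samples carried the markers of neurons. Interneuron markers were at 675 to 756 and 748 to 856 CPM, astrocyte markers at 3660 to 4556 and 3522 to 4930, oligodendrocyte markers at 4132 to 6021 and 5140 to 6955, and microglia markers at 339 to 811 and 484 to 672. Choroid plexus markers ranged from 40.7 to 1211 CPM in E4 and from 28.8 to 1419 in E3, highest in F6, and striatum markers from 505 to 1055 and from 310 to 1282. Oligodendrocyte precursor, endothelial, mural and meningeal fibroblast markers summed to between 34.3 and 148 CPM in every library, and those of the dentate gyrus and thalamus to between 2.14 and 16.3. Blood cell markers ranged from 55.9 to 99.6 in E4 and from 20.8 to 298 in E3, and cortical layer markers from 445 to 477 and from 331 to 447. No marker of any of the 15 lists was called with all 8 libraries. Without F61 and F6 the cortical layer markers *Rasgrf2*, at 0.63, and *Foxp2*, at -0.53, were called. The part of tissue composition in the differences above was not tested.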

How the data were processed

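RNA was measured in cerebral cortex by RNA sequencing with a strand-specific kit. The authors aligned single-end reads to mm10 (GRCm38) with TopHat2 2.0.8b in Partek, kept uniquely mapped reads, and deposited CPM values. In each library 94.4 to 95.1% of the low deposited CPM values (up to 50 steps, tolerance 0.02) were whole multiples of the column minimum, so these values were read as the reads plus 1 added read, and the rest were not whole within that tolerance. Depth was 17.8 to 22.3 M reads, and intervals cover counting error only. Groups were taken from the labels, and 16 columns of the other experiment were not used. Repeated symbols (4 listings) were left out.

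Genes above the minimum in all 8 libraries entered a limma fit (version 3.58.1, R 4.3.3) of log2(TMM-rescaled CPM + 0.5), with Benjamini-Hochberg adjustment at 5% FDR, and the study's second threshold of p under 0.005 was also counted. Printed CPM are TMM-rescaled unless called deposited. A fold change on this scale understates low genes. Nothing in the labels states how the animals were raised, so p-values measure the spread between these mice. Males and nPM females were fitted the same way, and the sex difference was an interaction term over the 16 control mice. Alternatives used edgeR 4.0.16 and DESeq2 1.42.0 on recovered reads, voom, array weights, other scalings, filters and pseudocounts, 1 variance over 8 groups, a length covariate and 1 library left out. Leaving out E3 F61 and F6 together was chosen after seeing the data. The limma fit was also run on simulated reads drawn from the E4 means. Those reads held no library like F61 or F6, so they cannot show how the fit behaves with such libraries. Transcript length was known for 96.7% of tested genes. Named genes were up to 15 a direction by p at 5% FDR, the 5 largest differences a direction, up to 5 examples a list by p, called genes in 5 Mb windows with at least 3 calls, *Apoe*, the leading genes of the sex difference and of decisive left-out fits, and *Xist* and *Ddx3y*. Members and lists were chosen with earlier results of these data known. Some genes that the rule names are not reported here.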

Additional observations from a re-analysis of the deposited data

Results flagged for a closer look

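Of 82 groups of 4 mice examined for a single value far from the rest, 2 held one, where chance gives about 1 in 20. *2700038G22Rik* in E4 had 1.30, 1.37, 2.13 and 1.33 rescaled CPM, and the gap of the highest mouse, F26, to the next was 0.923 of the group's range. *Erdr1* in E4 had F38 at 0.403 rescaled CPM above the other mice, with a gap of 0.873 of the range. Both genes were called, and every E4 mouse still lay on the same side of every E3 mouse.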

How the results depend on the processing

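No paired analysis was possible because the E4 and E3 females share no animal number, and females and males of a genotype share only 1, fewer than a block needs. None of the 38 called genes changed direction under any alternative run. The count of 38 was 4156 by DESeq2 on recovered reads, 5931 with array weights, 8830 with 1 variance over 8 groups, 21 with at least 10 reads in every library, 21 with the length slope as a covariate (16 of the 38 among them) and 310 without E3 F61 and F6, and 15 to 6401 over the fits that left out 1 library. It was 33 by edgeR and 45 by voom. For the sex difference the count of 0 was 2468 by DESeq2, 4847 with array weights, 5182 with 1 variance and 123 without F61 and F6, and 0 to 6342 with 1 library left out. The overlap of 24 with males was 71, 60, 15 and 15 by DESeq2, array weights, at least 10 reads and the length covariate, and 13 to 41 with 1 library left out. The overlap of 19 with nPM females was 61 by DESeq2, 31 with array weights, 35 with 1 variance and 10 with at least 10 reads, and 12 to 23 with 1 library left out. Differences that changed sign, all uncalled, were under the length covariate *Apoe* (0.0864), *Bcam* (-0.18), *Ifi27* (0.0559), *Serpina3g* (-0.14), *Ece1* (-0.0248) and *Xist* (-0.74), without F61 and F6 *Bcam* (-0.0556), *Serpina3g* (-0.0024) and *Xist* (-0.0674), and without E4 F26 *Serpina3g* (-0.0276, with a highest value of 0.164 when another library was left out). The median changed sign in 15 of 38 lists under the length covariate, 8 with array weights, 7 without F61 and F6 and 4 with no rescaling. The cause of these changes was not tested.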
